A study of Homo sapiens with 4 samples.

Results

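The miR-129 and miR-218 families were followed through 6 mature miRNAs, hsa-miR-129-5p, hsa-miR-129-1-3p, hsa-miR-129-2-3p, hsa-miR-218-5p, hsa-miR-218-1-3p and hsa-miR-218-2-3p, which were picked by name from the 2656 mature miRNAs counted in human cortical interneurons. Cortical interneurons are the inhibitory neurons of the cortex, and these were grown from the H1 human embryonic stem cell (hESC) line. In 2 libraries the interneurons had spent 7 days in medium with ethanol at about 50 to 100 mM (ethanol-exposed replicates 1 and 2), and in the other 2 they had been kept for 7 days without ethanol (unexposed replicates 1 and 2). The study describes a further day without ethanol before the cells were collected. All 4 libraries come from 1 cell line, for which the labels name no genetic change, and the treatment was done in duplicate, so that P values measure the spread between these cultures only.

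A miRNA is cut from a hairpin precursor whose 5p and 3p arms can each give a mature strand, and the strand that is kept guides silencing of mRNAs that pair with its seed (bases 2 to 8). miR-129 and miR-218 are known as miRNAs enriched in the nervous system. miR-129 has been studied as a regulator of ion channel and RNA-binding protein mRNAs in neurons, and miR-218 is best known from motor neurons and from its location inside the genes of SLIT proteins, which guide growing axons.

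The mature sequences are shown because the reading of these counts turns on which arms can be traced to 1 locus. They were taken from RefSeq (GRCh38.p14), where all 6 members were found by name, and bases 2 to 8 are in capitals.
miR-129-5p: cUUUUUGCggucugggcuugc
miR-129-1-3p: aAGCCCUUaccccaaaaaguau
miR-129-2-3p: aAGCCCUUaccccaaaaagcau
miR-218-5p: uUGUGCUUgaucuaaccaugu
miR-218-1-3p: aUGGUUCCgucaagcaccaugg
miR-218-2-3p: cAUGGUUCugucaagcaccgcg

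Each family has 2 loci. The 21 bases of miR-129-5p occur in the hairpins of both MIR129-1 and MIR129-2, and the 21 bases of miR-218-5p in those of both MIR218-1 and MIR218-2, so a 5p read does not tell its locus. The longest run shared by the hairpins was 26 bases in the miR-129 family and 24 bases in the miR-218 family, and in each it held the whole 5p strand. The 3p strands differ between loci. The seed of miR-129-5p and that of miR-218-5p were found in no other miRNA among the 2367 of the table that had a RefSeq sequence, while miR-129-1-3p and miR-129-2-3p share their seed with each other only.

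The 3p arms of miR-129 differ by 1 base, U20C counted from the 5′ end of miR-129-1-3p, which is in capitals below. Their first 19 bases are the same, so that a read ending before base 20 fits both, and how the authors counted such reads is not given in the sources used here.
miR-129-1-3p: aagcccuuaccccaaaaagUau
miR-129-2-3p: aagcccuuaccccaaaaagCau
The 3p arms of miR-218 start 1 base apart. Over the 21 bases they have in common 18 were identical. Their seeds differ because of the shifted start and because base 8 of miR-218-1-3p is among the bases that differ. The bases that differ are in capitals.
miR-218-1-3p: augguucCgucaagcaccAUgg
miR-218-2-3p: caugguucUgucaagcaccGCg

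On GRCh38, MIR129-1 lies at chr7:128207872-128207943 on the plus strand and overlaps no other gene of GENCODE 29. MIR129-2 lies at chr11:43581394-43581483 on the plus strand, in introns of the noncoding genes AC068205.1 and AC068205.2. MIR218-1 lies at chr4:20528275-20528384 on the plus strand, in an intron of SLIT2, and MIR218-2 at chr5:168768146-168768255 on the minus strand, in an intron of SLIT3. These positions were matched by name, since the counts carry no coordinates and the submitters' processing notes name another build (hg19).

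The libraries held between 12100425 and 24858230 counts, and both ethanol-exposed libraries were deeper than both unexposed libraries, so depth and exposure cannot be told apart. Among marker miRNAs, the 6 of neurons summed to between 292966 and 473479 CPM (counts scaled to the library total, here after TMM scaling). Most of that sum was miR-9-5p (157333 to 253991 CPM) and miR-7-5p (79240 to 187048 CPM), while miR-124-3p was at 2190 to 5405 CPM. The 8 of pluripotent cells summed to 2.42 to 3.89 CPM, and 3 of them (miR-367-3p, miR-371a-3p and miR-373-3p) were at 0 in all libraries. Summed levels were 255 to 308 CPM for the 4 oligodendrocyte markers, 80.2 to 111 CPM for the 5 of mesenchyme, 81.05 to 163 CPM for the 5 of epithelium and 807 to 1021 CPM for the 5 of endothelium and blood. In that last list miR-126-3p gave nearly everything (801 to 1012 CPM) and miR-223-3p, a marker of myeloid cells, was at 0. The 5 miRNAs of HOX clusters, which mark posterior identity as in the spinal cord, summed to 49.4 to 93.4 CPM. No miRNA in these lists tells interneurons from other neurons. miR-9-5p acts in neural progenitors too, and no progenitor list was used, so the label was checked only as far as neural cells.

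Of the 6 members, 5p arms were abundant, the 3p arms of miR-129 were moderate and the 3p arms of miR-218 were at the limit of counting. Ranked by mean share of the counts among all 2656 miRNAs, miR-129-5p was at position 25, miR-218-5p at 67, miR-129-2-3p at 157 and miR-129-1-3p at 276. The low-count filter kept these 4 members, along with 863 miRNAs in all. miR-218-1-3p and miR-218-2-3p did not pass it.

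hsa-miR-129-5p, the guide strand of its family, was read 141173 and 146894 times in exposed libraries, and 67860 and 78681 times in unexposed ones. Its TMM-normalized level was 5598 and 6034 CPM in the exposed cells and 5753 and 6114 CPM in the unexposed cells. The groups overlapped, and all 4 cultures lay close together. The means were 5816 ± 309 CPM (SD, n = 2) and 5933 ± 256 CPM (SD, n = 2). In edgeR's quasi-likelihood test the log2 fold change, exposed over unexposed, came to -0.029 (standard error 0.22, unadjusted P 0.899, adjusted p 0.985). Its 95% interval ran from -0.54 to 0.48, that is from 0.688-fold to 1.40-fold, so that a change of 2-fold in either direction lies outside it. The sign of a value this small was not stable: scaling by library size alone turned it to 0.11, where the median of all miRNAs stood at 0.14.

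hsa-miR-218-5p, the guide strand encoded within SLIT2 and SLIT3, was read 25700 and 24627 times in exposed libraries, and 11454 and 18782 times in unexposed ones. Its TMM-normalized level was 1019 and 1012 CPM in the exposed cells and 971 and 1460 CPM in the unexposed cells. The exposed cultures were nearly equal and lay between the unexposed ones, and unexposed replicate 2 alone stood above the rest. The means were 1015 ± 5.24 CPM (SD, n = 2) and 1215 ± 346 CPM (SD, n = 2). The log2 fold change was -0.26 (standard error 0.25, 95% interval -0.84 to 0.32), and edgeR gave it an unadjusted P of 0.3328 and an adjusted p of 0.937. The 0.558-fold end of that interval leaves room for a larger decrease than the 1.25-fold end does for an increase.

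The value of miR-218-5p rested on which unexposed culture it was set against. Leaving out unexposed replicate 1 gave a log2 fold change of -0.53 (edgeR, unadjusted P 0.0390 and adjusted p 0.458), and leaving out unexposed replicate 2 gave 0.028 (unadjusted P 0.920). In the fit without unexposed replicate 1, 10.1% of all 977 miRNAs tested had an unadjusted P under 0.05, against 4.52% with all 4 libraries. The share was 11.4% without unexposed replicate 2, and 1.42% and 4.94% without exposed replicate 1 or 2, fits in which 0 members passed. In these fits the single library left in a group gives no spread of its own. The spread was also pooled over all miRNAs, with 977 degrees of freedom without unexposed replicate 1, against 7.82 with all 4 libraries. The P values of these fits are therefore not on the same footing as those with all 4 libraries. The unexposed replicates differed by 0.59 in log2 CPM for miR-218-5p, a gap that was at least as large as that of 67.6% of the tested miRNAs (the median gap was 0.41), while the exposed replicates differed by 0.011, at least as far apart as only 3.01% of them.

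The same library, unexposed replicate 2, was also high for miR-10a-5p, a HOX cluster miRNA, at 45.6 CPM against 1.94 and 2.79 CPM in the exposed cells and 2.46 CPM in unexposed replicate 1. The other HOX cluster miRNAs were not raised there, with miR-10b-5p at 45.5 CPM against 42.6, 62.8 and 60.6 CPM in the same order of libraries. Of the 4 HOX cluster miRNAs tested, miR-615-3p was higher and miR-10a-5p lower in the exposed cells at an unadjusted P under 0.05, where 2.55% of all tested miRNAs were higher and 1.97% lower, and neither at an adjusted p under 0.05 (0.922 for each in edgeR). The reads of miR-615-3p were few, 38 and 23 counts in exposed and 6 and 6 in unexposed libraries. The lower miR-10a-5p came from its level in unexposed replicate 2 alone. Among the other marker lists, 1 of the 6 neuron markers, miR-124-3p, was higher and 0 were lower (edgeR, unadjusted P 0.0316, adjusted p 0.922). Of the 4 epithelium markers tested 1, miR-200a-3p, was lower and 0 were higher (edgeR, unadjusted P 0.0487, adjusted p 0.922). Summed, the neuron markers were at 292966 and 379254 CPM in exposed cells and at 473479 and 354461 CPM in unexposed cells. The epithelium sums were 81.05 and 112 CPM against 163 and 101 CPM. For both sums the groups overlapped. The part of these marker miRNAs in the level of miR-218-5p was not tested. In bulk cultures fewer cells of a type and less RNA per cell cannot be told apart.

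hsa-miR-129-2-3p, the 3p arm that only MIR129-2 encodes, was at 150 and 120 CPM (TMM) in exposed cells, and at 144.96 and 107 CPM in unexposed cells, on 3786, 2910, 1710 and 1380 counts. Each group had 1 higher and 1 lower culture, and the groups overlapped. The exposed mean was 135 ± 21.6 CPM (SD, n = 2) and the unexposed mean 126.1 ± 26.7 CPM (SD, n = 2). The log2 fold change was 0.097 (standard error 0.25, 95% interval -0.49 to 0.69). edgeR gave an unadjusted P of 0.714 and an adjusted p of 0.983. With upper quartile scaling the value was -0.013, where the median of all miRNAs stood at -0.12.

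hsa-miR-129-1-3p, the 3p arm that only MIR129-1 encodes, was at 30.6 and 22.5 CPM (TMM) in exposed cells, and at 24.1 and 21.5 CPM in unexposed cells, on 771, 547, 284 and 277 counts. Exposed replicate 1 was above the other 3 libraries, which lay close together. The exposed mean was 26.5 ± 5.73 CPM (SD, n = 2) and the unexposed mean 22.8 ± 1.80 CPM (SD, n = 2). The log2 fold change was 0.22 (standard error 0.28, 95% interval -0.42 to 0.86). edgeR gave an unadjusted P of 0.454 and an adjusted p of 0.966. Without exposed replicate 1 the value was -0.022.

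**Figure D1:**
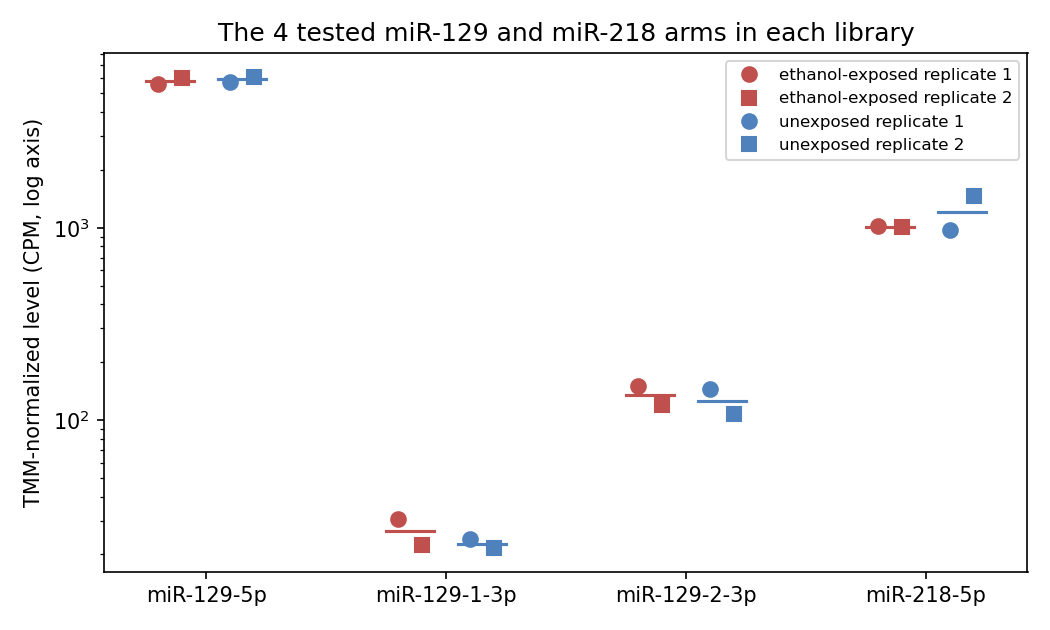
TMM-normalized level in CPM (log axis) of the 4 tested members in each library, with circles for replicate 1, squares for replicate 2 and a short line at the mean of each group (n = 2). The groups overlap for all 4, and for miR-218-5p unexposed replicate 2 (1460 CPM) stands above the other 3 libraries (971 to 1019 CPM).

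Taking the members as a set, 0 of the 4 tested had an unadjusted P under 0.05 in edgeR, and likewise 0 in limma-voom and 0 in DESeq2. Over all 863 tested miRNAs 39 did, or 4.52%, so a count of 0 among 4 is near the background. With Benjamini-Hochberg adjustment the count over all miRNAs was also 0 in edgeR, in limma-voom and in DESeq2, where 31 and 28 had an unadjusted P under 0.05 by the latter tools. The groups did not overlap for 0 of the 4 members, whereas this held for 33.4% of all tested miRNAs. A two-sided exact permutation test gave p = 0.667 for each of the 3 miR-129 arms and p = 1 for miR-218-5p, and with 2 cultures against 2 it cannot go below 0.3333.

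**Figure D2:**
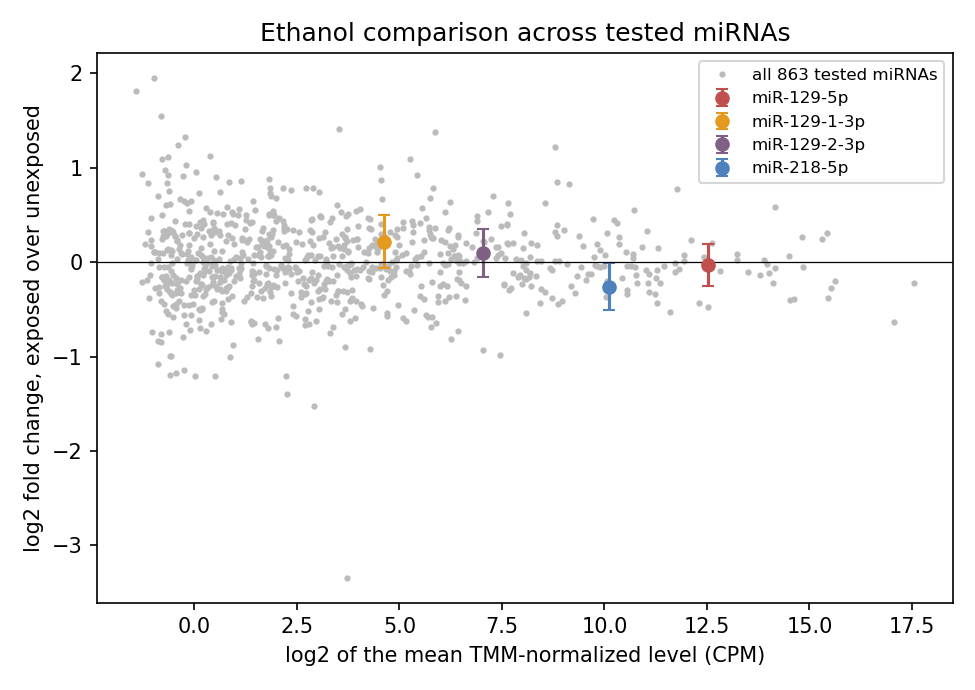
log2 fold change (exposed over unexposed) against the log2 of the mean TMM-normalized level in CPM for the 863 tested miRNAs (grey), with the 4 members in colour and bars of 1 standard error. All members lie between -0.26 and 0.22, and for the 3 miR-129 arms the bar crosses 0.

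The 3p arms of miR-218 were all but missing. hsa-miR-218-1-3p was read 2 times and 1 time in exposed libraries, and in neither unexposed library (0 counts each). hsa-miR-218-2-3p had 0 counts in all 4, as did 831 of the 2656 miRNAs. Taking 3 counts as the smallest number that can be told from 0, which before TMM scaling is 0.121 to 0.135 CPM for exposed and 0.215 to 0.248 CPM for unexposed libraries, neither arm was detected in any single library, and no fold change is given. The deeper libraries were the exposed ones, so the 3 reads of miR-218-1-3p carry no comparison.

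Against this floor of 3 counts per library, miR-218-5p was at least 8567-fold and 8209-fold higher than miR-218-2-3p in the exposed libraries, and at least 3818-fold and 6261-fold higher than either 3p arm in the unexposed libraries. For the few reads of miR-218-1-3p the ratio of miR-218-5p to it was 12850 (95% exact binomial interval 3557 to 106112) in exposed replicate 1 and 24627 (4420 to 972754) in exposed replicate 2. Because both locus-specific arms were under the floor in each library, these counts do not tell how much of miR-218-5p came from the SLIT2 intron and how much from the SLIT3 intron. The only other miRNA gene inside SLIT3, MIR585, lies 495 kb from MIR218-2 (chr5:169263601-169263694). Its miR-585-3p was read 19 and 29 times in exposed libraries, and 10 and 8 times in unexposed ones. Its log2 fold change came to 0.41 (standard error 0.44, unadjusted P 0.384 and adjusted p 0.940 in edgeR), and miR-585-5p had 0 counts in all 4. SLIT3's own mRNA was not analysed here.

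The miR-129 precursors kept much more of their 3p strands. Summed over the libraries the 3p arms made up 2.61% of the miR-129 counts, against 0.00372% of the miR-218 counts. Among 108 precursor names with at least 10000 counts in all, the median share of the rarer arm was 1.26%, and it was under 1% for 51 of them. Ordered by how far the major arm exceeded the other, miR-218 was at position 6 and miR-129 at position 65. The rarer arm had at most 3 counts for 6 of the 108 names, so miR-218 is not alone in this. The 108 names left out some abundant families, such as miR-7 and miR-128, although both passed 10000 counts. The positions, the median and these counts therefore hold only among the names compared.

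**Figure D3:**
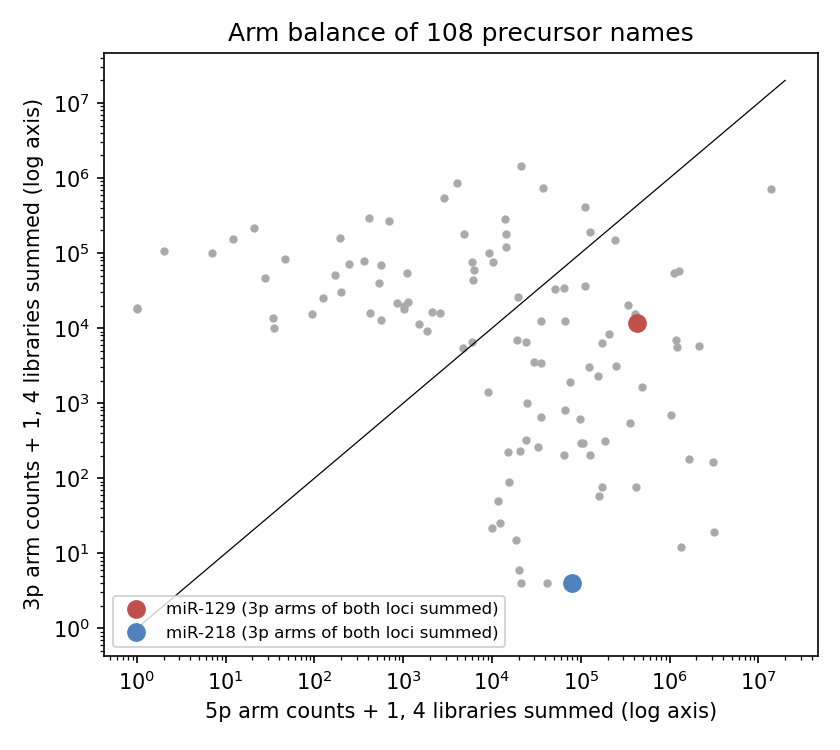
Counts of the 3p arm against counts of the 5p arm (each plus 1, log axes, 4 libraries summed) for 108 precursor names with at least 10000 counts, with the line of equal arms. miR-129 (red) lies among names with a moderate excess of the 5p arm, and miR-218 (blue) near the bottom edge, with 80563 counts of the 5p arm and 3 of both 3p arms.

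Ratios taken within a library depend on neither depth nor scaling, and they were used to ask whether the balance of arms, or of the 3p strands, moved with ethanol. miR-129-5p exceeded both its 3p arms together by 31.0 and 42.5 times in exposed libraries, and by 34.0 and 47.5 times in unexposed ones. In percent, the 3p arms were 3.13% (95% Wilson interval 3.04 to 3.22%) and 2.30% (2.22 to 2.38%) of the miR-129 counts of exposed libraries, and 2.85% (2.73 to 2.98%) and 2.06% (1.97 to 2.16%) of those of unexposed libraries. The groups overlapped, and the spread within a group was larger than the distance between groups. On the log2 scale the exposed mean was 5.18 ± 0.32 (SD, n = 2) and the unexposed mean 5.33 ± 0.34 (SD, n = 2), a difference of -0.15 (two-sided exact permutation p = 0.667). Over the 83 precursor names with at least 100 counts of the rarer arm, the groups did not overlap for 30.1%, and the median absolute difference between groups was 0.22. Without molecular identifiers, the Wilson intervals reflect the error of counting reads, not molecules, and nothing else.

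Among the 3p reads of miR-129, more were counted for miR-129-2-3p than for miR-129-1-3p. Of the counts of both, miR-129-2-3p took 83.1% (95% Wilson interval 82.0 to 84.1%) and 84.2% (82.9 to 85.4%) in the exposed, and 85.8% (84.2 to 87.2%) and 83.3% (81.4 to 85.0%) in the unexposed libraries. In each library, then, miR-129-1-3p was read about 0.166 to 0.204 times as often as miR-129-2-3p. The unexposed libraries lay on either side of one exposed library, and the log2 ratio of miR-129-1-3p to miR-129-2-3p was -2.35 ± 0.081 (SD, n = 2) in the exposed and -2.45 ± 0.19 (SD, n = 2) in the unexposed cells, a difference of 0.099 (two-sided exact permutation p = 0.667). These are shares of reads as the authors' pipeline assigned them: reads ending before base 20 fit both arms, and how they were assigned is unknown, so the shares need not be those of the loci. They also need not hold for miR-129-5p.

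The guide strands of the families kept a similar proportion in 3 of the libraries. miR-129-5p was read 5.49 and 5.96 times as often as miR-218-5p in the exposed cells, and 5.92 and 4.19 times as often in the unexposed cells. Unexposed replicate 2 was the one that lay apart. Since miR-129-5p was nearly level over the libraries, this restates the high miR-218-5p of that library. The log2 ratio was 2.52 ± 0.084 (SD, n = 2) in the exposed and 2.32 ± 0.35 (SD, n = 2) in the unexposed cells, a difference of 0.20 (two-sided exact permutation p = 0.667). Adjusted over the 3 ratios by Benjamini-Hochberg, each of these exact permutation p values stays at 0.667.

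**Figure D4:**
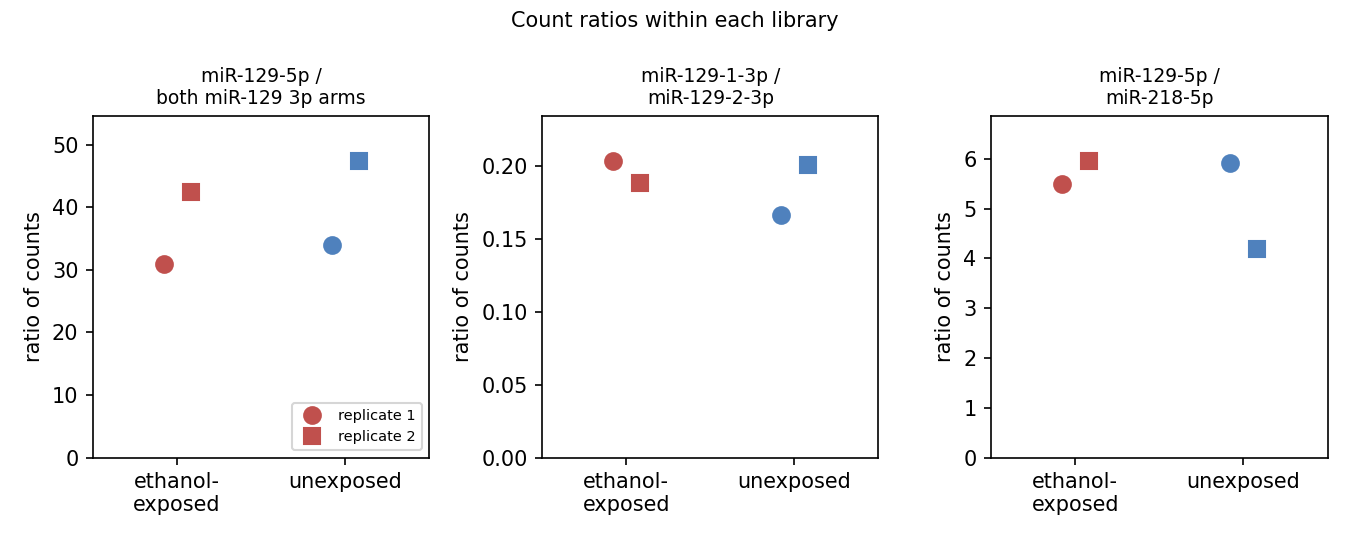
Ratios of counts within each library (linear axes from 0), with circles for replicate 1 and squares for replicate 2, exposed libraries in red and unexposed in blue. In each panel the groups overlap: 31.0 to 47.5 for the miR-129 arms, 0.166 to 0.204 for miR-129-1-3p over miR-129-2-3p, and 4.19 to 5.96 for miR-129-5p over miR-218-5p.

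The miRNAs whose profile over the 4 libraries was most like that of a guide strand were looked up among the others averaging at least 10 CPM (375 for each), by the root mean square difference of centred log2 CPM. For miR-129-5p these were miR-30a-3p (0.027), miR-455-5p (0.032) and miR-941 (0.041), all nearly flat over the cultures. For miR-218-5p they were miR-18a-5p (0.038), miR-618 (0.043) and miR-301a-5p (0.053), all highest in unexposed replicate 2: miR-18a-5p was at 17.3 CPM there against 11.5 to 11.97 CPM in the other libraries. The 3p arms of miR-129 did not follow their own 5p strand closely, with root mean square differences of 0.24 for miR-129-1-3p and 0.25 for miR-129-2-3p, positions 204 and 213 in that order. With only 4 libraries these orders are a description, and the patterns shared with a guide strand follow from choosing by likeness.

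Other brain-enriched miRNAs were set beside the members, from a list of 20 that were all tested. At an unadjusted P under 0.05 in edgeR 1 was higher in the exposed cells, where 2.55% of all tested miRNAs were, and 0 were lower, where 1.97% were. At an adjusted p under 0.05 there were 0. The median log2 fold change was 0.18, against -0.010 over all tested miRNAs. Within the list the values ran from -0.64 to 0.77, with 13 positive and 7 negative. The 1 that was higher was miR-124-3p, the miRNA most closely tied to neuronal identity. It was at 5405 and 3362 CPM in exposed cells, and at 2947 and 2190 CPM in unexposed cells. The groups did not overlap for 6 of the list of 20, miR-124-3p among them, and for 33.4% of all tested miRNAs. For miR-124-3p the log2 fold change came to 0.77 (standard error 0.30, unadjusted P 0.0316 and adjusted p 0.922 in edgeR).

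The 5 most abundant of that list were miR-9-5p, which acts in neural progenitors and neurons, miR-7-5p, miR-128-3p, miR-124-3p and miR-132-3p, which follows neuronal activity. Their log2 fold changes, besides that of miR-124-3p, were -0.23 (standard error 0.34) for miR-9-5p, -0.64 (standard error 0.35) for miR-7-5p, 0.31 (standard error 0.31) for miR-128-3p and 0.19 (standard error 0.20) for miR-132-3p, and edgeR's unadjusted P for these 4 lay between 0.107 and 0.524. In level, miR-129-5p (5598 to 6114 CPM) was above miR-124-3p in each library, and miR-218-5p was near miR-132-3p (1219 to 1416 CPM). Levels of different miRNAs were not corrected for how well each is ligated and amplified, so this order is of counts.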

How the data were processed

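Small RNA libraries (NEBNext) were made by the authors from 2 ethanol-exposed and 2 unexposed cultures. Per the study's methods the CAP-miRseq pipeline was used, and the table the authors deposited holds raw read counts of 2656 mature miRNAs, without normalization. The submitters' notes name hg19, and the pipeline and annotation versions are not given in the sources used here. Groups and replicate numbers came from the sample titles.

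The counts were filtered with filterByExpr (minimum count 10, minimum total 15), scaled by TMM (factors 0.846 to 1.13) and compared with edgeR 4.0.16 in R 4.3.3 (quasi-likelihood test without covariates, fitted on all 863 miRNAs, Benjamini-Hochberg adjustment). The threshold was 0.05. Standard errors came from the F statistic, and 95% intervals from the test's degrees of freedom. For log2 CPM and ratios 0.5 was added to each count. Ratios of the miR-218 arms were replaced by counts and bounds, as those arms were under 3 counts. The alternatives tried were DESeq2 1.42.0, limma-voom from limma 3.58.1, other scalings and filters, a replicate block and leaving out each library. The fit was first tested on simulated data. Intervals of shares are Wilson intervals (scipy 1.17.1).

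The members and lists were chosen with earlier results of these data known. Named were the members, miRNAs sharing their seed or host gene, the 5 most abundant of the brain-enriched list, and the 3 most alike in profile to each guide strand; miR-10a-5p, miR-10b-5p, miR-615-3p, miR-126-3p, miR-200a-3p and the marker miRNAs at 0 were named after their values were seen.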

Additional observations from a re-analysis of the deposited data

How the results depend on the processing

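Under 9 alternatives of scaling, filter, tool and pairing, miR-218-5p kept a negative log2 fold change (-0.37 to -0.14, unadjusted P 0.191 to 0.657) and miR-129-1-3p a positive one (0.11 to 0.39, P 0.321 to 0.709), and no member reached an unadjusted P of 0.05 in edgeR, limma-voom or DESeq2. The sign of miR-129-5p changed with library size only (0.11) and that of miR-129-2-3p with upper quartile scaling (-0.013), settings that shifted the median of all miRNAs by 0.15 and -0.11. Relative to that median they were -0.036 and 0.11, with the signs of the TMM fit. Leaving out each library gave -0.079 to 0.023 for miR-129-5p, -0.022 to 0.43 for miR-129-1-3p, -0.14 to 0.33 for miR-129-2-3p and -0.53 to 0.028 for miR-218-5p. For the ratios it gave -0.39 to 0.093 (miR-129 arms), -0.038 to 0.24 (miR-129-1-3p over miR-129-2-3p) and -0.050 to 0.45 (miR-129-5p over miR-218-5p). Of the brain-enriched list 0 to 3 were then higher and 0 to 2 lower, the most without unexposed replicate 1 or 2, where 10.1% and 11.4% of all miRNAs tested had a P under 0.05, and 1 was lower with no filter on low counts and 1 with the crossed replicate block. With no filter 1825 miRNAs were tested and 94 had an unadjusted P under 0.05 in edgeR. In that fit 6 miRNAs had an adjusted p under 0.05, and the adjusted p of the members tested was 0.932 to 0.999. Its spread was pooled over all miRNAs (3650 degrees of freedom, against 7.82 in the main fit). The cause of these changes was not tested.

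With the replicate number as a block the log2 fold changes were -0.029 for miR-129-5p, 0.20 for miR-129-1-3p, 0.10 for miR-129-2-3p and -0.23 for miR-218-5p, and the block changed no call of a member. The deviations of same-numbered libraries had a weak correlation of -0.186 across 863 miRNAs, and nothing says that a number marks a shared batch. The crossed replicate block, chosen after seeing the data, gave 59 miRNAs with an unadjusted P under 0.05, against 39 without a block and 25 with the numbers as given, and 0 members in each.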

Other observations

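The balance of miR-129 arms differed between the cultures of a group by more than between the groups. The log2 ratio of miR-129-5p to both 3p arms was higher in replicate 2 than in replicate 1 by 0.46 in the ethanol-exposed and by 0.48 in the unexposed cells, against a median gap of 0.26 and 0.38 over the 83 precursor names with at least 100 counts of the rarer arm. Between same-numbered libraries the exposed value was lower by -0.14 for replicate 1 and -0.16 for replicate 2. Nothing says that the numbers mark pairs. With them as pairs an exact sign-flip test gave p = 0.5, the lowest it can give here. Of the 83 names, the ratio was higher in replicate 2 in both groups for 23, lower in both for 13, and moved in opposite directions for 47.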
